A study of Homo sapiens with 12 samples.

Results

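The interaction of doxycycline and IFNγ is the difference between 2 responses: the change with IFNγ in cells given doxycycline, less the change with IFNγ in cells without it. It was taken on the log2 scale over all 12 libraries of the series, so a value of 0 means the same fold response in both arms and a negative value means a smaller one with doxycycline. The libraries are RNA sequencing of SK-N-DZ, a MYCN amplified human neuroblastoma cell line, and all 4 groups are the same clonal derivative carrying a hairpin against ARID1A that doxycycline switches on. The groups, with 3 replicates each, were untreated control (C), doxycycline for 4 days (D), IFNγ for 24 h (I) and doxycycline for 4 days with IFNγ for 24 h (DI). The labels call C and I WT, the hairpin not being induced there. No group had doxycycline without the hairpin, so effects of the antibiotic and of the hairpin cannot be told apart, and a clone stands for no other clone. The labels do not say whether replicates were separate cultures, so p-values measure the spread between these libraries.

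IFNγ binds the receptor of IFNGR1 and IFNGR2, whose kinases JAK1 and JAK2 start a signal that reaches gamma-activated sites in target genes. IRF1, a factor induced early, then binds interferon-stimulated response elements, so many antiviral, antigen presentation and chemokine genes rise in turn. ARID1A is a DNA-binding subunit of the SWI/SNF complex, which moves nucleosomes at promoters and enhancers.

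Libraries held 16469832 to 21790869 counts, and 15828 of 43769 genes passed the filter on low counts. Adrenergic neuroblastoma markers such as HAND2 and DBH were over 1 CPM (counts scaled to library size) in all 12 libraries for 8 of 9 markers, the exception being TH. The leukocyte marker CD3E had no count and the 5 leukocyte markers together stayed at or below 0.946 CPM. Of 4 fibroblast markers, PDGFRA and PDGFRB were over 1 CPM in every library, and the list summed to 39.0 to 92.8 CPM in C, 70.3 to 122 in I, 27.7 to 77.05 in D and 44.8 to 107 in DI. In bulk RNA, fewer responding cells and a weaker response per cell cannot be told apart.

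ARID1A, the target of the hairpin, comes first as the check of the labels. The CPM were 197, 186 and 165 in C, 192, 203 and 194 in I, 197, 159 and 158 in D and 151, 133 and 148 in DI. D replicate 1 lay at the top of the range of C and the other 2 D libraries lay below it, while all 3 DI libraries lay below every C and I library. The IFNγ response was −0.036, 0.12 and 0.23 (log2) in the 3 pairs without doxycycline and −0.38, −0.26 and −0.10 with it. The interaction was −0.35 (SE 0.10), with an adjusted p of 0.419 by edgeR's quasi-likelihood test with Benjamini-Hochberg adjustment, and was not called. In a model of the 4 groups without a block, D against C was −0.092 and DI against I was −0.44 (log2), with adjusted p of 0.788 and 0.115 by edgeR's quasi-likelihood test. Those comparisons called 1.23% and 0.67% of tested genes. With the replicate number as a block over both arms, added after the data were seen, the adjusted p were 0.509 and 0.0111 (same test), at −0.094 and −0.45. That model called 13.9% and 10.5% of tested genes (in D against C 7.67% lower and 6.23% higher). A fall of ARID1A in D was thus called in neither model, and a fall in DI against I only with this block.

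The contrast asks for which genes the IFNγ response differed when doxycycline had been given to induce the hairpin against ARID1A. FN1, SAMHD1, IL18BP and RIGI had a smaller response with doxycycline at an adjusted p under 0.05, and no gene had a larger one. The 4 calls are 0.0253% of 15828 tested genes. At an unadjusted p under 0.05 there were 827 genes (5.22% of those tested), of which 516 were lower (3.26%) and 311 were higher (1.96%). The response of 969 genes was lower in all 3 doxycycline pairs than in all 3 pairs without it (6.12%), and that of 689 genes was higher (4.35%). In either direction that is 1658 genes (10.5%). With no interaction in any gene, a share of about 0.05 would pass an unadjusted p of 0.05. For paired responses without overlap that share would be about 0.1. Taken alone, both totals are therefore near what no interaction would give. The 4 calls rest on the pairing of same-numbered libraries within each arm: without a replicate block edgeR called 0 genes, with 99 at an unadjusted p under 0.05. With the replicate number as a block over both arms it also called 0, with 374 at an unadjusted p under 0.05, whereas DESeq2 called 21 and limma-voom 9 with the pairing. Leaving out the libraries of 1 number in both arms gave 2 genes without replicate 1 (1 lower, 1 higher) and 23 without replicate 2 (18 lower, 5 higher). Without replicate 3 it gave 3 (2 lower, 1 higher). Leaving out a library gave 8 without D or DI replicate 1, 28 without D replicate 2, 27 without DI replicate 2, and 7 without D or DI replicate 3. Of these 5 were higher without D or DI replicate 2 and 2 were higher in each of the others. Each pair within an arm has its own term, so a library left out alone takes its partner out of the contrast. The 2 libraries of a pair therefore give nearly the same result.

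FN1 (chr2:215360440-215436172, minus strand, in GENCODE 29, GRCh38) encodes fibronectin, a matrix glycoprotein that binds integrins. The CPM were 379, 621 and 487 in C, 1786, 2985 and 3330.1 in I, 595, 1067 and 876 in D and 1239.9, 2662 and 2177 in DI. Levels rose with IFNγ in every pair, from a higher start in D than in C of the same number. The log2 responses were 2.24, 2.27 and 2.77 without doxycycline and 1.06, 1.32 and 1.31 with it, and they did not overlap. The interaction was −1.19 (SE 0.13, adjusted p 0.0009, edgeR's quasi-likelihood test with Benjamini-Hochberg adjustment). FN1 kept its call when any library, or the libraries of any 1 number in both arms, were left out, with a range of −1.30 to −0.997.

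SAMHD1 (chr20:36889773-36951901, minus strand) encodes a phosphohydrolase that depletes deoxynucleotides and restricts retroviruses. The CPM were 65.5, 63.3 and 63.8 in C, 481, 487 and 399 in I, 87.4, 59.0 and 69.8 in D and 330.4, 255 and 279.8 in DI. The 3 DI libraries lay below the 3 I libraries, while D and C overlapped. The log2 responses were 2.87, 2.94 and 2.64 without doxycycline and 1.92, 2.11 and 2.00 with it. Its interaction was −0.81 (SE 0.10, adjusted p 0.00174, same test). Without replicate 1 it was −0.74 with an adjusted p of 0.0695.

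IL18BP (chr11:71998541-72005715, plus strand) encodes a secreted protein that binds and neutralises IL-18. The CPM were 7.13, 7.25 and 6.98 in C, 116, 104 and 119.8 in I, 8.49, 9.83 and 8.57 in D and 61.2, 39.0 and 58.6 in DI. The D libraries lay just above the C libraries, and all 3 DI libraries lay below all 3 I libraries. The log2 responses were 4.01, 3.83 and 4.08 without doxycycline and 2.84, 1.98 and 2.76 with it. The interaction of IL18BP was −1.45 (SE 0.19, adjusted p 0.00375, same test). It had an adjusted p of 0.0561 without replicate 1 and 0.0848 without replicate 3.

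RIGI (chr9:32455705-32526324, minus strand) encodes the cytosolic sensor of viral RNA with a 5′ triphosphate. The CPM were 1.54, 2.14 and 1.68 in C, 39.6, 45.4 and 28.0 in I, 3.43, 5.49 and 3.47 in D and 28.4, 25.9 and 23.6 in DI. The D libraries were all above the C libraries, and DI replicate 1 lay just above I replicate 3 while the other DI libraries lay below all of I. The log2 responses were 4.60, 4.35 and 3.97 without doxycycline and 3.01, 2.22 and 2.72 with it. RIGI had the largest interaction of the 4, −1.73 (SE 0.24, adjusted p 0.00727, same test). Its call was lost without replicate 1 (adjusted p 0.0573, same test), without replicate 3 (0.082) and without pair 1 of C and I (0.0643 without C, 0.0744 without I). For each of the 4 genes the exact permutation test of 3 against 3 responses, two-sided, gave p = 0.1, the smallest it can give.

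**Figure D1:**
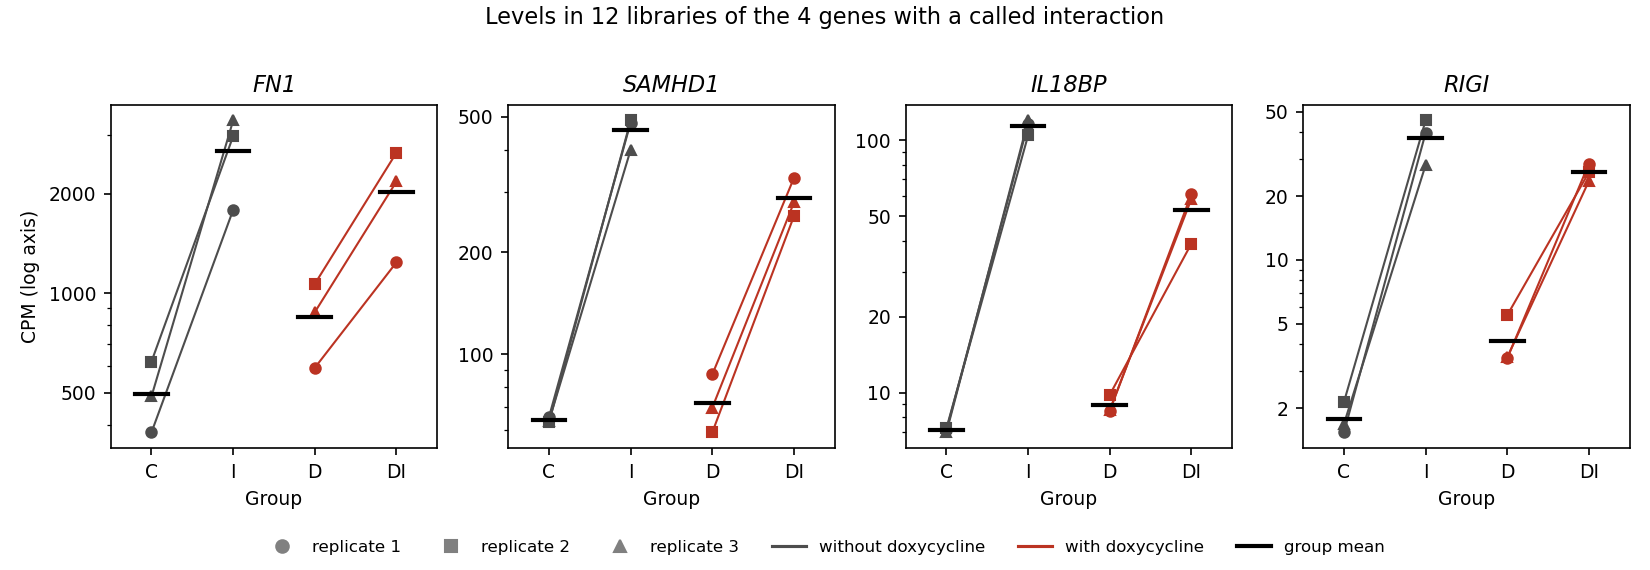
Levels of FN1, SAMHD1, IL18BP and RIGI in CPM on a log axis for the 3 libraries of C, I, D and DI. Lines join same-numbered libraries within an arm, black bars are group means, and in each panel the lines with doxycycline are less steep than those without it.

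Promoter sequence was read for the called genes and for the 10 leading genes in each direction, to see which carry the letters bound by the factors of the pathway. The window ran from 250 bases before to 50 bases after each RefSeq start (GRCh38.p14), and 16 of these 20 genes had an entry. A pair of GAAA runs set 2 bases apart, the core of the interferon-stimulated response element, was held by 3.57% of all 35116 promoters on either strand. TTCNNNGAA, the gamma-activated site, was held by 7.66%. Of the 4 called genes, IL18BP had both at 1 of its 4 starts, with the first base at −67, −37 and −7 from the start. FN1, SAMHD1 and RIGI had no match in their windows. LIMA1 held a TTCNNNGAA at −213 and LGALS3BP the element core at −58. UNC5B, IFIT2, SOCS2 and DLK1 had no entry. The 5 windows of 30 bases are given 5′ to 3′ on the gene's strand, with the matched pattern in capitals.
IL18BP, chr11:71999540-71999569: gttaaaaagtGAAAGTGAAAtagagggtcg
IL18BP, chr11:71999569-71999598: ggggcagtgctTTCCCAGAAggattgctcg
IL18BP, chr11:71999599-71999628: gcatcctgcccTTCCCAGAAgcagctctgg
LIMA1, chr12:50283715-50283744: tgcgtgtctccTTCAGAGAAaagcgtgccg
LGALS3BP, chr17:78979962-78979991: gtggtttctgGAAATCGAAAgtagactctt
A match is a run of letters and was not tested as a binding site.

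At the looser threshold of an adjusted p under 0.1 there were 14 genes (0.0885%), again all with a smaller response with doxycycline. Besides the 4 they were UNC5B, SLC12A7, LIMA1, KMT2D, IFIT2, SYNE2, ZFHX3, IKZF4, FRAS1 and RNF213. In 9 of the 14 the D level was above C and the DI level was below I, and in the other 5 the doxycycline level was above at both corners. The interaction below 0 by which the 14 were chosen favours the first pattern, so it is no separate result.

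IFIT2, an interferon-induced protein that binds viral RNA complexes, had 49.3, 68.8 and 47.3 CPM in I and 27.2, 26.4 and 20.5 in DI. Its C and D levels were under 1 CPM in all 6 libraries, and the interaction was −2.06 (SE 0.36, adjusted p 0.0554, edgeR's quasi-likelihood test with Benjamini-Hochberg adjustment). SLC12A7, a potassium and chloride cotransporter, rose from 0.0615, 0.199 and 0.187 CPM in C to 46.9, 76.5 and 39.1 in I. It went from 0.429, 1.45 and 0.985 in D to 38.6, 64.1 and 24.4 in DI, and its 1, 4 and 3 counts in C leave the fold of −2.97 (SE 0.52) imprecise. LIMA1, an actin-binding LIM protein, had responses of 1.26, 1.22 and 1.17 and 0.78, 0.73 and 0.70 and an interaction of −0.48 (SE 0.084).

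UNC5B, a netrin receptor, had 81.1, 84.7 and 58.9 CPM in C, 109, 116 and 118 in I, 272, 151 and 276 in D and 246, 143 and 259.8 in DI. It was higher in I than in C in all 3 pairs and lower in DI than in D in all 3 pairs, at an interaction of −0.73 (SE 0.12, adjusted p 0.0523, same test). KMT2D, a histone H3 lysine 4 methyltransferase, had responses of −0.11, 0.054 and 0.40 without doxycycline and −0.76, −0.53 and −0.43 with it. SYNE2, a nuclear envelope spectrin-repeat protein, had responses of 0.12, 0.20 and 0.54 and −0.39, −0.47 and −0.20. For both genes every D library lay above every C library, and each DI library lay below the D library of its number. UNC5B and LIMA1 were called by DESeq2, by limma-voom and after a correction for gene length and GC, as was KMT2D.

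In the other direction no gene was called, and the lowest adjusted p among the 10 leading genes was 0.237. SOCS2, a feedback inhibitor of cytokine receptors, was lower with IFNγ in all 6 pairs. The CPM were 24.7, 21.9 and 31.6 in C, 3.46, 1.85 and 3.88 in I, 22.4, 21.2 and 40.4 in D and 4.82, 4.61 and 8.24 in DI. The response was −2.80, −3.49 and −2.99 (log2) without doxycycline and −2.19, −2.17 and −2.28 with it, which makes the interaction 0.86 (SE 0.19). LGALS3BP, a secreted glycoprotein that binds galectin-3, had 34.4, 43.2 and 40.7 CPM in C and 15.6, 24.7 and 13.8 in D, and 560.1, 733 and 555 in I and 478, 439 and 413 in DI. Its interaction was 0.68 (SE 0.16, adjusted p 0.267, edgeR's quasi-likelihood test with Benjamini-Hochberg adjustment), and without replicate 2 it was 1.05 and passed an adjusted p of 0.05. MOV10, an RNA helicase that restricts retroelements, reached 77.6, 70.1 and 71.2 CPM in I and 82.6, 70.5 and 76.6 in DI, from 19.3, 17.3 and 20.3 in C and 10.3, 14.5 and 14.7 in D. DLK1, LINC00641, PLPPR4 and OLFM3 had interactions of 0.52, 0.62, 0.49 and 0.67. MRPS26, ENGASE and EEF1E1, which serve the mitochondrial ribosome, protein deglycosylation and tRNA synthetase assembly, had responses below 0 in all 3 pairs without doxycycline and higher ones with it (interactions of 0.37, 0.48 and 0.58).

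**Figure D2:**
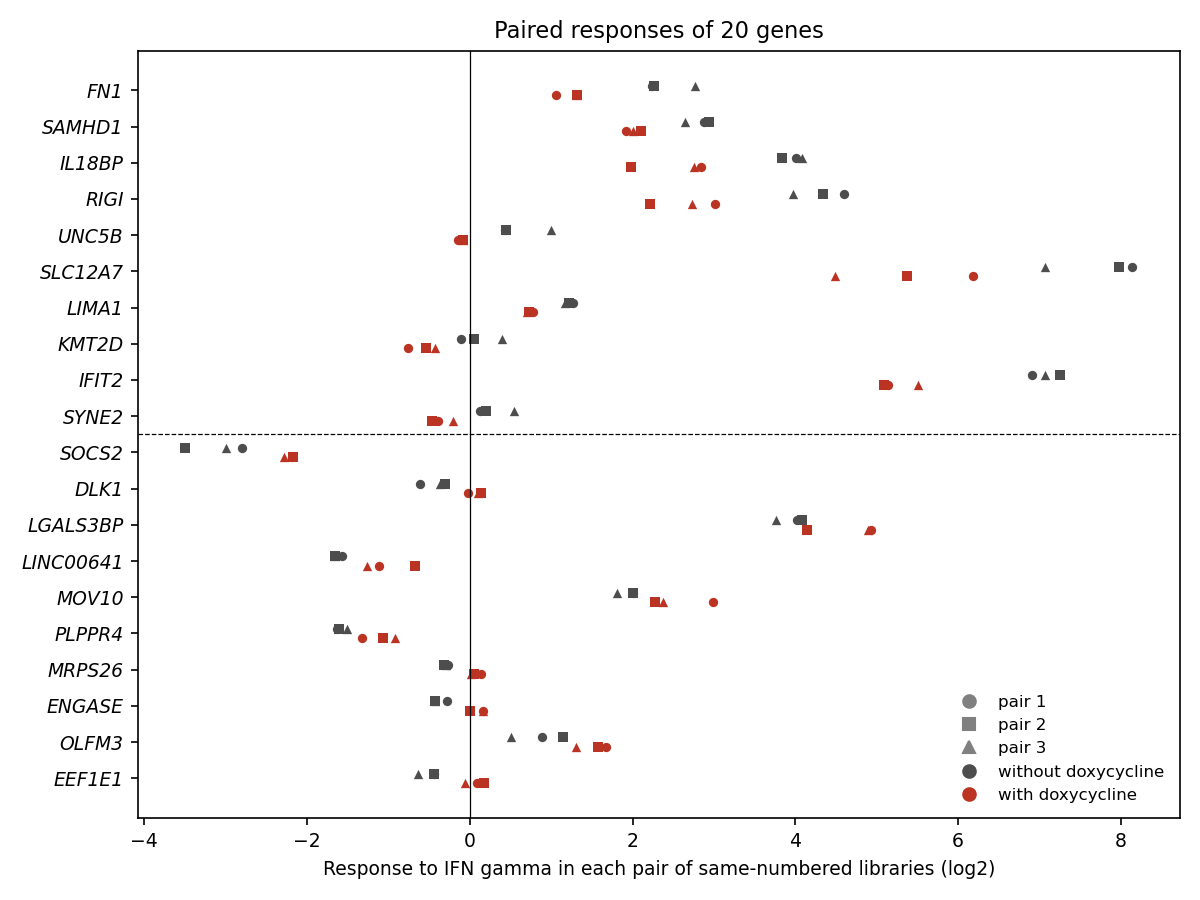
Log2 responses to IFNγ in each of the 6 same-numbered pairs for the 10 leading genes with a lower response with doxycycline (above the dashed line) and the 10 with a higher one (below it). Grey points are pairs without doxycycline, red points are pairs with it, shapes give the pair number, and for every gene shown the colours do not overlap because the rule that chose the genes asked for that.

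These values are ratios, so the same change was also taken as a difference in CPM, a measure added after the log2 values were known. The gain with IFNγ was 106 ± 8.09 CPM without and 44.0 ± 12.9 with doxycycline for IL18BP (mean ± SD, n = 3 pairs), 392 ± 48.7 and 216 ± 24.1 for SAMHD1, and 35.9 ± 8.71 and 21.8 ± 2.75 for RIGI, without overlap in each. FN1 gained 2205 ± 731 and 1181 ± 487, and those ranges overlapped. LGALS3BP, higher on the log2 scale, was lower on this scale with 577 ± 98.2 and 426 ± 33.1 and no overlap, so its direction depends on the scale. HLA-E, at 505 ± 56.0 and 339 ± 85.0, and PSME1, at 362 ± 48.1 and 226 ± 3.62, were also lower on this scale without overlap. Their log2 interactions were 0.21 (SE 0.50) and 0.22 (SE 0.13), with overlapping paired responses, so no log2 direction was established for them. Over the 15828 genes the gain was lower with doxycycline without overlap in 6.78% and higher in 4.46%. In the interferon-induced set described next the shares were 22.9% (121 of 529) and 2.65% (14).

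The IFNγ response itself was broad in both arms. Without doxycycline 2318 genes were called (14.6%), 1453 higher (9.18%) and 865 lower (5.46%). With it 1770 were called (11.2%), 1105 higher (6.98%) and 665 lower (4.2%). The excess of higher calls depends on the scaling: with library size alone in place of TMM there were 1252 higher and 1296 lower without doxycycline and 994 higher and 992 lower with it. Of the higher calls 938 were shared, 64.6% of those without and 84.9% of those with doxycycline, and 2 genes were called in opposite directions. Without C or I replicate 2 or 3 the first count was 1413 to 1428, and without replicate 3 it was 1318. The count with doxycycline fell to 1075 without replicate 1, 1166 without replicate 3, 1076 without D replicate 1 and 1081 without DI replicate 1.

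The 529 genes of the interferon-induced set have an adjusted p under 0.05 and a rise of at least 1 log2 unit for the mean of both responses, a choice that weighs both arms alike. The median interaction in the set was −0.18, against −0.0065 over all tested genes. In the set 338 genes lay below 0 and 191 above, with 73 lower and 17 higher at an unadjusted p under 0.05 (13.8% and 3.21%, against 3.26% and 1.96%). All 4 called genes are members. Leaving out the 134 genes that have a group with no library over 3 counts kept 395, with a median of −0.18, 62 lower and 9 higher. By pair number the set medians were −0.091, −0.38 and −0.18, all below 0 with an SD of 0.15, and the medians over all genes were −0.021, −0.017 and 8.5e-04.

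The median was −0.11 for the 234 genes with a mean rise of 1 to 2 log2 units, −0.25 for the 138 with 2 to 4 and −0.29 for the 157 with 4 or more. Of those 157, 106 had a group at the floor, and over genes with counts in every group the medians were −0.11, −0.25 and −0.30. The shares did not follow the same order: 62.8%, 69.6% and 60.5% lay below 0. At an unadjusted p under 0.05, 12.8%, 18.1% and 11.5% were lower. Of the 62 members below 0 that passed the unadjusted p, 38 were higher in D than C and lower in DI than I, 17 were lower at both corners and 7 were higher at both. The interaction below 0 that chose these genes favours the first pattern. Over all 395 members with counts in every group, 90 had that pattern, 209 were lower at both corners, 76 were higher at both and 20 had the reverse pattern. The 50 genes lowered by IFNγ under the mirrored rule had a median of 0.37. At an unadjusted p under 0.05, 9 were higher (18%) and 0 lower, against 1.96% and 3.26% over all genes. Over the 46 of them with counts in every group the median was 0.23, and by pair number the medians of all 50 were 0.16, 0.18 and 0.067.

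**Figure D3:**
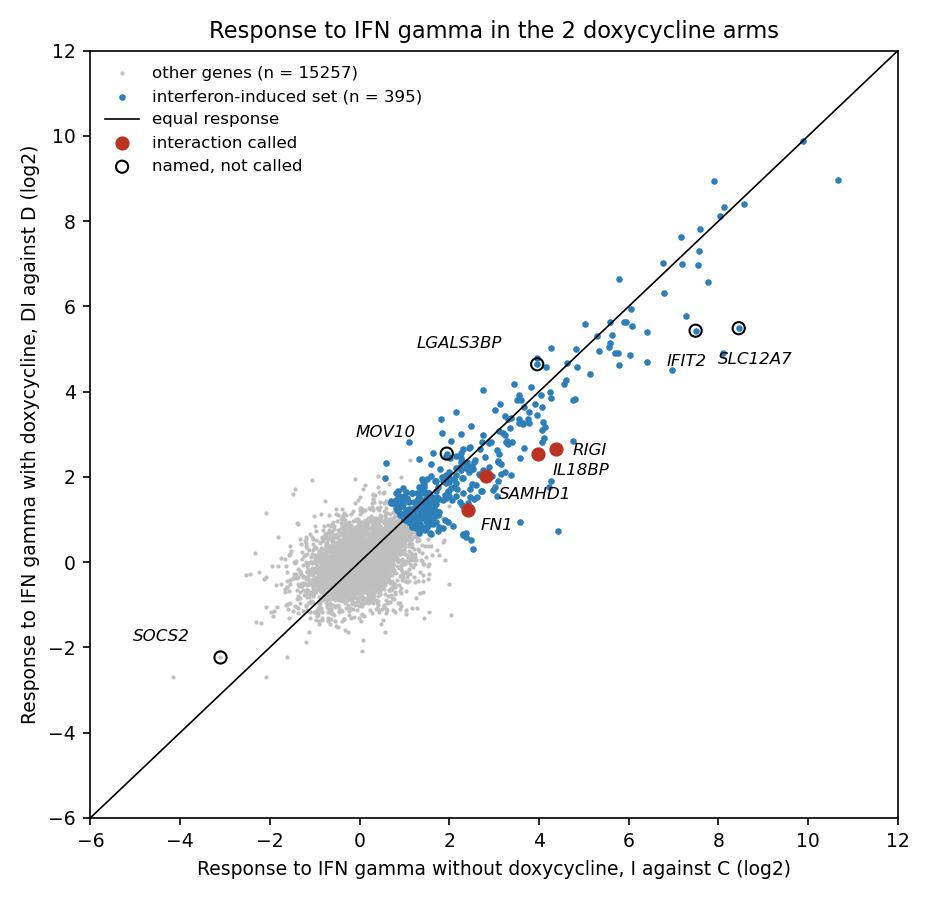
Log2 response to IFNγ with doxycycline (DI against D) over the response without it (I against C) for 15652 genes with more than 3 counts in some library of every group. Blue points are 395 interferon-induced genes, red points the 4 called genes and open circles other named genes, and more of the blue points lie below the line of equal response (261) than above it (134).

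No gene of the receptor, JAK and STAT list or of the list of IRF factors and co-activators was called. Among 10 genes of the receptor, JAK and STAT list the median interaction was −0.12. At an unadjusted p under 0.05, 2 were lower (20%) and 0 higher, against 3.26% and 1.96% over all genes. Many members of the interferon lists were themselves raised by IFNγ, and in the interferon-induced set the shares were 13.8% and 3.21%. JAK2, the kinase of the receptor, was −0.65 (SE 0.30) and STAT2 −0.25 (SE 0.12). With libraries left out JAK2 ran from −0.99 without replicate 1 to −0.29 without DI replicate 3, and STAT2 from −0.40 without replicate 1 to −0.095 without replicate 2. IRF1 rose from 2.27, 2.33 and 1.81 CPM in C to 381, 409 and 442 in I and from 1.91, 2.23 and 2.90 in D to 376, 342 and 383 in DI, an interaction of −0.27 (SE 0.20, adjusted p 0.981, edgeR's quasi-likelihood test with Benjamini-Hochberg adjustment). CIITA, the co-activator of class II genes, had 3.51, 1.96 and 1.83 CPM in I and 3.70, 3.64 and 2.34 in DI, with overlap, and an interaction of 0.42 (SE 0.47). None of the 11 tested IRF factors and co-activators passed an unadjusted p of 0.05. Among 12 feedback inhibitors 2 were lower (16.7%) and 1 higher (8.33%): IL18BP, which was called, and TRIM21, and SOCS2. SOCS1, which blocks JAK kinases, had 45.7, 54.2 and 54.8 CPM in I and 32.0, 23.9 and 28.1 in DI, and an interaction of −0.30 (SE 0.55).

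Antiviral effectors passed the unadjusted p on the lower side only. Of 26 tested, 8 were lower and 0 higher at an unadjusted p under 0.05, 1 of them called. The lower share was 30.8%, against 3.26% over all genes and 13.8% in the interferon-induced set. The median was −0.51, or −0.45 over the 19 with all groups measured. IFIT1, which binds viral RNA, had 61.3, 64.6 and 43.5 CPM in I and 49.7, 33.3 and 28.2 in DI (interaction −1.15, SE 0.27). RSAD2, or viperin, had 11.6, 17.4 and 5.61 and 9.86, 9.74 and 4.19 CPM (interaction −1.13, SE 0.29). IFI27 had 85.0, 94.9 and 108 CPM in I and 31.3, 28.9 and 22.0 in DI, with all DI libraries below all I libraries. BST2, or tetherin, had 156, 194 and 86.9 and 125, 118 and 33.0 CPM, and the responses of its 2 arms overlapped. Within the 13 tested RNA and DNA sensors RIGI was the only call, and the median was −0.075, or −0.19 over the 9 measured in all groups.

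ISG15 conjugation, the attachment of an interferon-induced ubiquitin-like protein, had 3 of 7 genes lower and 0 higher at an unadjusted p under 0.05. The lower share was 42.9%, against 3.26% over all genes and 13.8% in the interferon-induced set, and the median was −0.39. UBA7, the activating enzyme, is 1 of the 3 and had C at the floor of 3 counts, and over the 6 genes measured in all groups 2 were lower with a median of −0.34. ISG15 itself reached 294, 267 and 227 CPM in I and 177, 135 and 134 in DI, at an interaction of −0.43 (SE 0.13), and UBE2L6, its conjugating enzyme, was at −0.39 (SE 0.10). In the list of 14 PARP and DTX3L genes, DTX3L, an E3 ligase partner of PARP9, was the 1 gene past an unadjusted p of 0.05. That is 7.14%, against 13.8% lower in the interferon-induced set. It was at −0.52 (SE 0.17), and the list median was −0.065 with 5 genes above 0.

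No antigen presentation gene was called. Among 16 tested class I genes 2 were lower (12.5%) and 1 was higher (6.25%) at an unadjusted p under 0.05. The shares were 3.26% and 1.96% over all genes and 13.8% and 3.21% in the interferon-induced set. The higher one was TAP1, whose fitted value is not given because a group was at the floor of 3 counts. The list median was −0.16. Over the 11 measured in all groups it was −0.044, with 2 lower and 0 higher. HLA-E and B2M had interactions of 0.21 and 0.039 with SE of 0.50 and 0.16, each within 2 SE of 0. TAPBPL and ERAP1, a tapasin-related editor and a peptide-trimming protease, were at −0.54 (SE 0.19) and −0.43 (SE 0.19). ERAP1 ran from −0.085 without replicate 3 to −0.81 without replicate 2, where its adjusted p was 0.046 by edgeR's quasi-likelihood test. Of the 5 tested class II genes 1 was lower (20%), HLA-DMA at −1.58 (SE 0.72). Its mean levels were 0.470, 1.19, 0.984 and 0.830 CPM in C, I, D and DI. None of the 5 immunoproteasome genes passed an unadjusted p of 0.05, with PSMB10, PSME1 and PSME2 at 0.85, 0.22 and −0.20. Of 6 tested interferon chemokines and cytokines IL18BP, also in the feedback inhibitor list, was the 1 gene past that p (16.7%). The median over the 4 measured in all groups was −0.65. They were CX3CL1 (−0.44, SE 0.71), IL15 (−0.86, SE 0.54), IL7 (0.47, SE 0.69) and IL18BP (−1.45), so CX3CL1 was the only chemokine among them. In the complement list C4A and C4B, which share most of their sequence so that their counts cannot be held apart, were lower at an unadjusted p under 0.05 (−1.92 and −2.47), and C1R and CD59 were higher (0.84 and 0.21). That is 20% lower and 20% higher of the 10 tested members. With libraries left out C4A ran from −2.97 to −1.21, C4B from −3.31 to −1.30 and C1R from 0.39 to 2.06, and these 3 were called without replicate 2, D replicate 2 or DI replicate 2.

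**Figure D4:**
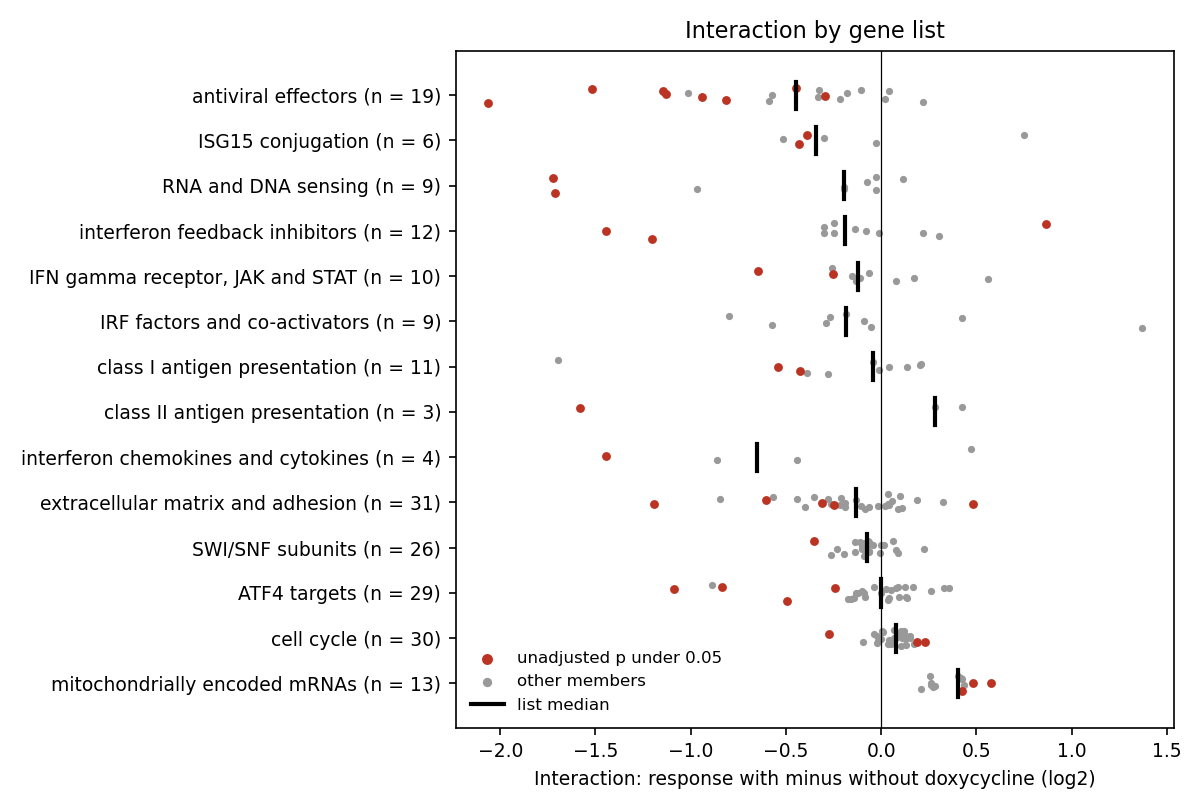
Interaction of each member with counts in all 4 groups, by gene list, on the log2 scale. Red points passed an unadjusted p under 0.05 and black bars are list medians. Among the 14 lists drawn these run from −0.65 in the chemokine and cytokine list to 0.41 in mitochondrially encoded mRNAs. The 4 members drawn in the former are CX3CL1, IL15, IL7 and IL18BP, the last also drawn among the feedback inhibitors.

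For several well-known targets C, D or both had no library over 3 counts, so no fold of a fold is given, only levels. GBP1, a GTPase against intracellular pathogens, reached 1429, 1408 and 1279 CPM in I and 859, 685 and 825 in DI. GBP4 reached 393, 477 and 381 and 283, 231 and 207 and IFIT3 257, 348 and 215 and 117, 106 and 78.3. TAP1, a chain of the peptide transporter, reached 1242, 1285 and 1464 and 895, 939 and 956, and PSMB9 268, 246 and 413 and 176, 178 and 236. For each of these 5 genes the 3 DI libraries lay below the 3 I libraries, as they did for 8.41% of all tested genes, while DI lay above I for 8.17%. Among the 134 members of the interferon-induced set with a group at the floor, 38 had all DI libraries below I (28.4%) and 6 had all of them above (4.48%).

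IDO1, which breaks down tryptophan, had 62.2, 105 and 43.7 CPM in I and 35.1, 27.1 and 7.88 in DI, with no count in C or D, and CD274, the ligand of PD-1, had 9.15, 8.84 and 9.33 and 4.72, 3.18 and 7.21. The chemokine CXCL9 had 1.48, 1.42 and 2.67 CPM in I and 0.719, 0.154 and 0.901 in DI. CXCL10 had at most 2 counts in any library and CXCL11 at most 10, and neither was tested. In a model of the 4 groups without a block, DI against I was −0.80 for GBP1, −0.79 for GBP4, −1.44 for IFIT3, −0.52 for TAP1 and −1.59 for IDO1 on the log2 scale, with adjusted p of 0.148, 0.257, 0.0247, 0.63 and 0.326 by edgeR's quasi-likelihood test. Over all tested genes that comparison called 0.569% lower and 0.101% higher. It leaves out the pairing by number: with the replicate number as a block over both arms, by the same test, the adjusted p were 0.00732, 0.0181, 0.000355, 0.189 and 0.018, at −0.80, −0.80, −1.43, −0.51 and −1.73, and 6.62% of genes were called lower and 3.85% higher. Neither model subtracts the D against C difference, which at these levels could not be measured.

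Outside the interferon pathway, 4 of 32 matrix and adhesion genes were lower (12.5%, against 3.26% over all genes and 12.9% in the decile of greatest exonic length) and 1 was higher at an unadjusted p under 0.05, with a median of −0.12. The median exonic length of the list was 8782 bases, and its median was −0.077 after the correction for length and GC described last. After FN1, COL1A2 was at −0.60 (SE 0.25), and the long matrix genes VCAN and FBN1 were at −0.25 and −0.31. Of 29 ATF4 targets, genes of the amino acid stress response, 4 were lower (13.8%, against 3.26% over all genes) and 0 higher, with a median of −4.8e-04. Their median difference of D against C was 1.01 in the model without a block, in which 4 of the 29 were called higher. SLC7A11, the cystine transporter, had 33.4, 7.66 and 114 CPM in D and 36.6, 8.46 and 74.7 in DI against 2.70, 1.79 and 1.62 in C and a mean of 3.87 in I. Its response was 0.92 (log2) without and −0.17 with doxycycline, an interaction of −1.09 (SE 0.27). CEBPB, ATF5 and PSPH were at −0.50, −0.84 and −0.24, and with libraries left out CEBPB ran from −0.68 to −0.19 and ATF5 from −1.22 to −0.42. The 30 cell cycle genes had a median of 0.078, with 1 lower (3.33%, against 3.26% over all genes) and 2 higher (6.67%, against 1.96%). MKI67 was at −0.27 and AURKB at 0.23.

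Of 26 SWI/SNF subunits, ARID1A was the 1 at an unadjusted p under 0.05 (3.85%, against 3.26% lower over all genes). The paralog ARID1B was at −0.23 (SE 0.11). MYCN, the amplified oncogene of this line, had 1330.4, 1082 and 1253 CPM in C, 1029.7, 879 and 886 in I, 1496, 1052 and 1212 in D and 1075, 772 and 895 in DI. The response was −0.39 without and −0.45 with doxycycline, and the interaction was −0.064 (SE 0.087, adjusted p 0.995, edgeR's quasi-likelihood test with Benjamini-Hochberg adjustment).

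Mitochondrially encoded mRNAs were the list with all 13 members above 0, at a median of 0.41. Of the 13, 3 passed an unadjusted p under 0.05 (23.1%, against 1.96% higher over all genes): MT-ATP6 (0.58), MT-CO1 (0.48) and MT-CO2 (0.43). MT-CO1 had 12682, 10672 and 8717 CPM in C, 11717, 11241 and 8278 in I, 2653, 2180.5 and 1723 in D and 5573, 2768 and 1635 in DI. DI replicate 1 was the DI library furthest above the D library of its number, and without replicate 1 the 3 genes were at 0.20, 0.13 and 0.13 in the same order. Mitochondrial counts were 3.35% to 4.99% of a library in C, 2.90% to 4.42% in I, 0.856% to 1.30% in D and 0.768% to 2.58% in DI, and their part in the other results was not tested. Copies of these genes in the nuclear genome share sequence with them, so reads could have been split between them.

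Long genes carried more of the lower responses. Among the decile of genes with the greatest exonic length, 204 of 1582 were lower at an unadjusted p under 0.05 (12.9%) and 15 were higher, against 21 and 58 of 1585 in the shortest decile. FN1 and SAMHD1, at 17315 and 11261 exonic bases, belong to the longest decile (over 10335 bases), and IL18BP and RIGI, at 4323 and 4353, lie under the median of 4685.5. Of the 14 genes under the looser threshold 7 belong to the longest decile. In the shift of the longest against the shortest decile with IFNγ, the 3 pairs without doxycycline gave 0.077, 0.14 and 0.12 (log2) and those with it −0.14, 0.038 and 0.044, so pair 1 with doxycycline stood apart. After a correction for length and GC, chosen after the data were seen, edgeR called 7 genes with the replicate block: the 4, at −1.06, −0.73, −1.47 and −1.73 for FN1, SAMHD1, IL18BP and RIGI, with KMT2D, LIMA1 and UNC5B.

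**Figure D5:**
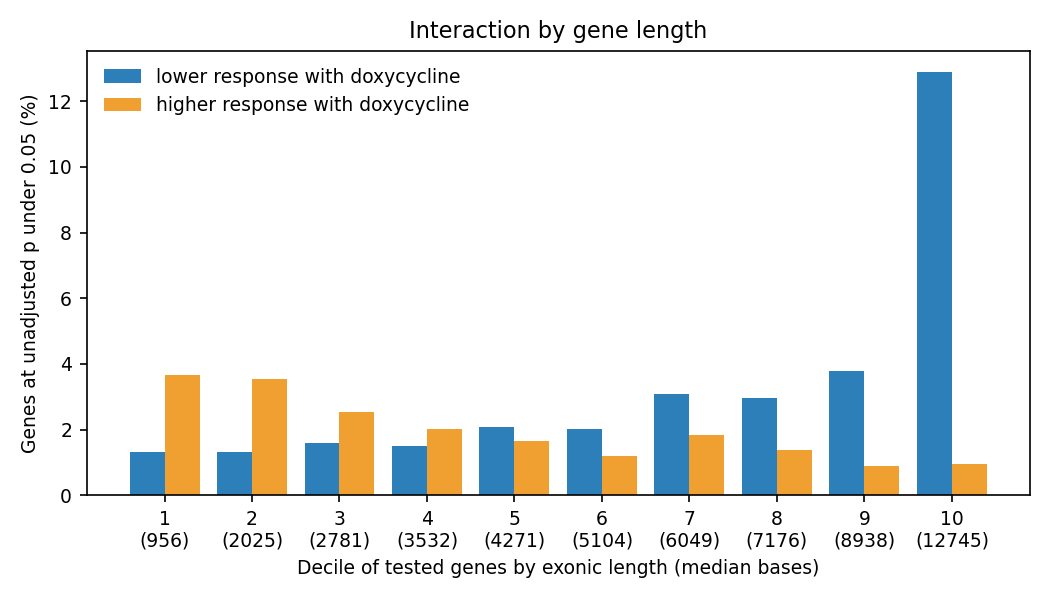
Share of genes at an unadjusted p under 0.05 for the interaction, in percent, by decile of exonic length, with lower responses in blue and higher in orange. The lower share was 1.32% in the shortest decile and 12.9% in the longest.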

How the data were processed

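The 12 libraries are total RNA of SK-N-DZ cells, sequenced as paired reads of 150 bases. The deposited values are raw counts per gene made by the authors. The aligner, counter and genome build are not given in the sources used here, and the only tool in the submitters' processing notes is DESeq2. The authors also deposited 3 tables of their own comparisons (DESeq2 fold changes and p-values with normalised counts). These were not used, nor were their 18 per-library columns, whose names no label explains. All 43769 gene identifiers occur in GENCODE 29 (GRCh38), which gave positions, exonic lengths and GC.

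Groups and replicate numbers come from the sample labels. Counts were filtered with filterByExpr (minimum count 10), scaled by TMM and tested, two-sided, by edgeR's quasi-likelihood method (edgeR 4.0.16, R 4.3.3) in a model with a term for each of the 6 same-numbered pairs within an arm and an IFNγ term per arm, which leaves 4 residual degrees of freedom. The pairing follows the numbers. With each group's mean taken off, same-numbered libraries of an arm correlated at 0.65 to 0.86 in all 6 pairs, same-numbered libraries of different arms at 0.35 to 0.67 (12 pairs), and libraries of other numbers at −0.68 to 0.17 (36 pairs). Taking off the mean of 3 libraries makes their values sum to 0, so positive same-number correlations push the last range below 0. That range is no separate evidence for the pairing. A gene is called at a Benjamini-Hochberg adjusted p under 0.05 over all tested genes, and p-values adjusted in this way are two-sided throughout. CPM divide counts by the scaled library size. Paired responses are differences of log2 CPM with a prior count of 2. D against C and DI against I come from a model of the 4 groups without a block, with a block by number over both arms as an alternative added after the data were seen. At the depth of these libraries the floor of 3 counts equals 0.135 to 0.187 CPM, and it covers counting error only. Replicates of a group differed by more than counting noise (chi-square per gene 19.8 to 85.0 between pairs of libraries).

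The genes named were those called, the 10 with the smallest p in each direction among genes with a mean of at least 1 CPM and no overlap of paired responses, a panel of 20 with ARID1A and MYCN (some of them are not reported here), and up to 4 with the smallest p in each of the lists described; ZFHX3, IKZF4, FRAS1, RNF213 and TRIM21 were named after their values were seen, to complete short counts. The rule also named the 5 members of the interferon-induced set with the largest and the smallest interaction, most of which had a group at the floor and are given only where they are panel genes. The members and lists were chosen with earlier results of these data known. Alternatives changed the scaling, the filter, the block, the threshold, the libraries and the tool (DESeq2 1.42.0, limma 3.58.1), and 1 added after the data were seen corrected for length and GC by lowess (span 0.3). The code was tested on simulated data. Promoter windows were searched with Python 3.11.15.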

Additional observations from a re-analysis of the deposited data

Results flagged for a closer look

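The IFNγ response differed between the arms by a test of the difference itself in 4 genes, which is why they stand here: FN1 (−1.19 on the log2 scale), SAMHD1 (−0.81), IL18BP (−1.45) and RIGI (−1.73), each smaller with doxycycline in 3 of 3 pairs. Groups of 3 libraries are too small for the search for single outlying libraries, which was not run.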

How the results depend on the processing

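No alternative turned the direction of FN1, SAMHD1, IL18BP or RIGI. The count of 4 interaction genes was 4 with DESeq2's size factors, with library size alone and with a mean of at least 1 CPM, 7 with the replicate block and the length and GC correction, 9 with limma-voom, 14 at an adjusted p under 0.1, 21 with DESeq2, 115 without the filter on low counts (73 lower, 42 higher), and 0 both without a replicate block and with the replicate block over both arms. FN1 then had an adjusted p of 1 and 0.172 by edgeR's quasi-likelihood test, and IL18BP 0.903 and 0.172. Leaving out single libraries, or the libraries of 1 number in both arms, gave 2 to 28 interaction genes. Without the libraries of 1 number RIGI, IL18BP and SAMHD1 lost their call as given above. The IFNγ response counted 350 genes without doxycycline and 273 with it in the model with no replicate block, 953 and 706 with the replicate block over both arms, and 1318 to 2506 and 1075 to 1787 when libraries were left out. D against C counted 194 genes and DI against I 106 without a block, and 2200 and 1658 with the replicate block over both arms. The median of the interferon-induced set stayed below 0, from −0.32 to −0.073, and ARID1A stayed below 0 and uncalled in all alternatives. The effect of leaving libraries out was checked for 58 named genes, but not for CIITA, CX3CL1, IL15, IL7 or HLA-DMA. Directions that turned among the 58 were those of HLA-E (−0.29 to 1.14), SOCS1 (−1.01 to 0.38), B2M (−0.16 to 0.21), IRF1 (−0.51 to 0.047) and MYCN (−0.12 to 4.9e-04). Of the 58, 31 moved by over 1.5 times or turned when libraries were left out, none of the 4 called ones among them. The cause of these changes was not tested. Depth limits targets with no library over 3 counts in C or D, for which no single interaction is given. Their fitted values still enter the counts and medians of the set and the lists, except where only genes measured in every group are counted.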
